A study of Mus musculus with 3 samples.

Results

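Mature oligodendrocyte nuclei were taken from single-nucleus RNA libraries of differentiated mouse neurospheres, spheres of cells grown from neural stem cells of the subventricular zone. A nucleus was included when it held at least 4 unique molecular identifiers (UMIs, counted RNA molecules) of Mog, Mag, Mobp and Ermn together and fewer than 3 of the microglial genes Inpp5d, Ptprc, Fyb and Adgre1. By this rule 882 of 12549 nuclei were mature oligodendrocyte nuclei, or 7.03%, and they came from the control library (170 of 4884 nuclei), the CBP-ablated library (512 of 3017) and the p300-ablated library (200 of 4648). One further CBP-ablated nucleus met the first condition but not the second.

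CBP and p300, encoded by Crebbp and Ep300, are related lysine acetyltransferases. The stem cells came from newborn pups carrying loxP-flanked Crebbp (CBP-ablated) or Ep300 (p300-ablated), with Cre recombinase and mCherry delivered by a lentivirus, and the control culture received a virus encoding a red fluorescent protein. The control cells came from floxed pups as well, but which of the floxed lines gave them is not stated in the sources used here, and tamoxifen, named as the treatment in the labels of every sample, does not appear in the described procedure. Each library pooled about 15 cultures on day 15 of differentiation, after sorting of nuclei by their fluorescence and loading of 16000 nuclei. Both ablated libraries were compared with the same control library, and no condition had a replicate, so no test between conditions was made. Intervals in parentheses are 95% intervals that cover counting error only, and nuclei of a library are not replicates of its condition. Levels are given as CPM, the UMIs of a gene per 1000000 UMIs of all genes, with UMIs added up over the nuclei of a class. A log2 ratio sets the CPM of an ablated library over that of control, and 1 unit is a doubling. Where 3 values follow each other, they stand for control, CBP-ablated and p300-ablated nuclei in that order.

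Oligodendrocytes wrap axons in myelin, a stack of membrane rich in cholesterol and galactolipids and held together by a small set of abundant proteins. They arise from dividing precursors that express Pdgfra and Cspg4, pass through a short premyelinating stage marked by Enpp6 and Bcas1, and then switch on the myelin program under Sox10 and Myrf. Mog and Mag encode proteins of the outer and innermost myelin surface, Mobp a protein of compact myelin and Ermn a regulator of the oligodendrocyte cytoskeleton. These genes chose the nuclei, so their levels are given as a description.

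Mog (ENSMUSG00000076439, chromosome 17 from 37010743 to 37023398 on GRCm38) had 885 CPM in mature control nuclei (825 to 948), against 787 after CBP ablation (756 to 819) and 731 after p300 ablation (684 to 779.9). Mag (chromosome 7 from 30899176 to 30914873) had 964, 1045 and 964 CPM. Mobp (chromosome 9 from 120149707 to 120181484) reached 692 CPM in control (639 to 748), against 1135 after CBP ablation (1098 to 1173) and 853 after p300 ablation (802 to 906). Mobp was thus the rule gene that differed most between libraries, and Mog was highest in control. Ermn was sparse, at 31.8, 38.9 and 45.8 CPM. The median number of rule-gene UMIs in a mature nucleus was 13, 17 and 14.

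Genes that the rule did not read were also high in the same nuclei. Cldn14 and Prr5l were listed with earlier results of these data known, and the 12 leading genes were ranked on the same counts. Their levels are thus a description. Cldn14, which encodes a claudin, had 445 CPM in mature control nuclei against 2.14 in all other control nuclei, 569 against 8.19 CPM in the CBP-ablated library and 776 against 3.46 CPM in the p300-ablated one. It led the genes ranked by their lowest ratio of mature over other nuclei among the 3 libraries. Prr5l, which encodes a protein that binds mTOR complex 2, had 2030, 1691 and 2639 CPM in mature nuclei against 15.9, 32.3 and 13.7 CPM in all others. The 12 leading genes also included Tnni1, Sec14l5, Insc, Kndc1 and Mast3. After each nucleus was thinned to 1500 UMIs, a UMI of Mbp was found in 98.2%, 98.2% and 98.0% of mature nuclei, and before thinning in 99.4%, 98.8% and 99.5%. Among microglial nuclei, a type that does not form myelin, the shares were 21.7%, 32.1% and 22.2% of the 69, 28 and 36 nuclei deep enough to thin. In all 146, 60 and 52 microglial nuclei, with median depths of 1477, 1389 and 2306.5 UMIs, the unthinned shares were 26.7%, 38.3% and 26.9%. The source of the Mbp UMIs in microglial nuclei was not tested.

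Mature nuclei were deeper than their libraries, and the part of the raw UMI minimum in this was not tested. Their median depth was 5310.5, 5939.5 and 6159 UMIs with 1955.5, 2157 and 2183.5 genes, while the medians of all nuclei were 3219, 4016 and 3902.5 UMIs. The mature nuclei together held 913327, 3106564 and 1245096 UMIs, so levels are least precise in control. Doublet scores marked 8, 20 and 16 of them as likely pairs of nuclei, or 4.71%, 3.91% and 8% of the class, against 3.91%, 2.42% and 3.72% of all nuclei. The shares of all nuclei were set beforehand by the number of nuclei in each library and are not measured doublet rates. At the edge of the rule, 47 nuclei held exactly 4 rule-gene UMIs and 63 held 3. Just inside, Prr5l stood at 640.4 CPM and Enpp6 at 461, and just outside at 166 and 685 CPM. One barcode was a mature nucleus in both the control and the CBP-ablated library, among 3 barcodes that these libraries shared. Control shared 7 barcodes with the p300-ablated library and the ablated libraries shared 1, and none of these was a mature nucleus in both.

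Markers of neurons, dividing cells and vessel, ependymal and Schwann cells were low in mature nuclei, and microglial genes were limited by the rule itself. Of 9 microglial markers, 3, 2 and 3 had no UMI, and the summed levels were 39.4, 48.0 and 44.2 CPM. Fyb, which the rule limits, is on this list, so these values are in part set by the rule. C1qa, a complement gene of microglia, was at 0 in all 3 libraries. The 10 neuronal markers summed to 155, 168 and 149 CPM, led by Adarb2 at 83.2, 85.9 and 49.0 CPM, and the 6 genes of dividing cells to 12.04, 28.3 and 20.9 CPM. Of 11 vessel, ependymal and Schwann cell markers, 7, 5 and 5 had no UMI, and Pmp2, Cldn5, Dcn and Col1a1 were at 0 in all 3 libraries. The 8 astrocyte markers summed to 646, 449 and 456 CPM, with Gpc5, a glypican, the most abundant at 359, 239 and 215 CPM, and none of them was at 0. In all other nuclei Gpc5 had 2502, 204 and 972 CPM, so in the CBP-ablated library it was not lower in mature nuclei. Control was thus highest in both, while the order of the ablated libraries differed between mature and other nuclei. The list medians were −0.62 for CBP and −0.45 for p300 ablation, and with 10% free RNA in the proportions of each library subtracted they were 0.62 and 0.15, so the direction turned. Beyond that subtraction, the part of astrocyte RNA in the results that follow was not tested.

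The first question was how many mature oligodendrocyte nuclei each library held. They made up 3.48% of control nuclei (2.98 to 4.03), 17.0% of CBP-ablated nuclei (15.6 to 18.4) and 4.30% of nuclei after p300 ablation (3.74 to 4.93). The CBP-ablated share was 13.5 percentage points above control (12.1 to 15.0), or 4.88 times as high. The p300-ablated share was 0.822 points above control (0.0455 to 1.61), or 1.24 times as high. Under 11 alternative rules and denominators the interval of the CBP difference never included 0, while that of the p300 difference did so under 7, as with called doublets left out, at 0.660 points (−0.122 to 1.45), or among nuclei with under 2 UMIs of Slc7a11, an astrocyte gene, at 0.155 points (−0.704 to 1.004). The intervals of control and of the p300-ablated library overlap, and the CBP-ablated library lies apart from both. Shares sum to 100% in each library, so a larger number of mature nuclei and a smaller number of other nuclei cannot be told apart.

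The same libraries were then read at earlier stages. Newly forming nuclei were defined by at least 2 UMIs of Enpp6 in nuclei outside the mature class, and precursor nuclei by at least 3 UMIs of Pdgfra and Cspg4 together with fewer than 2 of Enpp6. Newly forming nuclei made up 3.69%, 9.78% and 2.24% of all nuclei, and precursor nuclei 15.6%, 14.6% and 35.1%. In the CBP-ablated library newly forming nuclei were thus 6.09 points above control (4.94 to 7.31), while for precursor nuclei a difference was not detectable, at −1.06 points (−2.66 to 0.580). In the p300-ablated library precursor nuclei were 19.5 points above control (17.8 to 21.2), and the difference for newly forming nuclei was −1.45 points (−2.13 to −0.769).

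**Figure D1:**
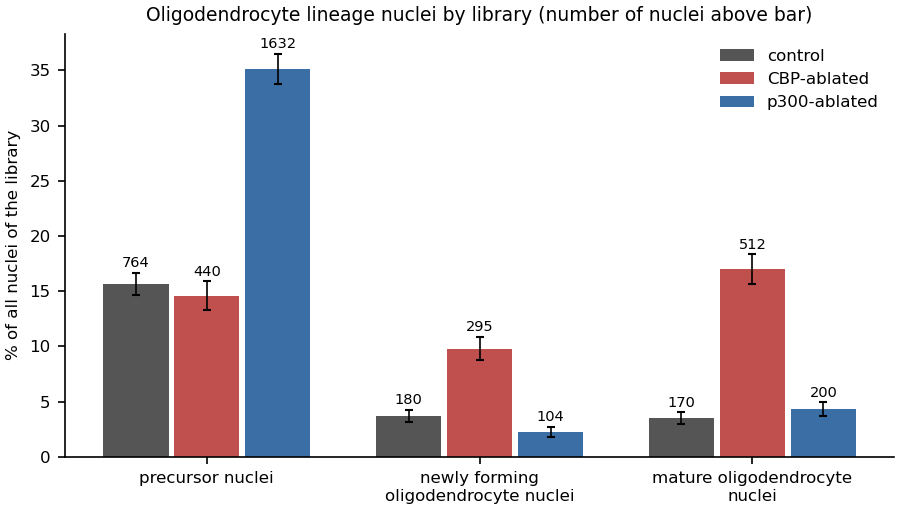
Share of all nuclei of each library (%, y axis) that fell in the precursor, newly forming and mature oligodendrocyte classes, with 95% Clopper-Pearson intervals as error bars and the number of nuclei above each bar. The CBP-ablated library has the tallest bars at the newly forming and mature stages, and the p300-ablated library at the precursor stage.

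Set against the lineage alone, mature nuclei were 15.3% of the 1114 control nuclei of the 3 stages (13.2 to 17.5), 41.1% of 1247 after CBP ablation (38.3 to 43.8) and 10.3% of 1936 after p300 ablation (9.01 to 11.8). On this scale the p300-ablated library lay below control, with a difference of −4.93 points (−7.50 to −2.47), whereas it lay above control as a share of all nuclei. Past the precursor stage the ablated libraries were alike in direction. Mature nuclei were 48.6% of mature and newly forming nuclei together in control (43.2 to 53.9), against 63.4% (60.0 to 66.8) after CBP ablation and 65.8% (60.2 to 71.1) after p300 ablation.

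Many genes set mature nuclei apart from newly forming nuclei in each library, and these are described without a test, because the classes were cut from the same counts. Of 18 genes of compact myelin and its cytoskeleton, 17 had at least 100 UMIs in the classes compared, and 15 of them were higher in mature nuclei in all 3 libraries. Over all 7296 genes with as many UMIs, 29.2% were higher and 30.9% lower in mature nuclei in all 3 libraries, and the counts of each list are to be read against these shares. Mbp, which encodes the protein that compacts the inner membrane faces, had 846, 1740 and 811 CPM in newly forming nuclei and 4737, 5418 and 5355 CPM in mature nuclei. The exceptions were Cd9, a tetraspanin, which was lower in mature nuclei in all 3 libraries, and Septin8, which was higher in the p300-ablated library and lower in the others. Of the late stage enzymes and secreted proteins, 14 of 15 compared were higher in mature nuclei in all 3 libraries, with Pde1c the exception, against 29.2% of all genes. Aspa, which cleaves N-acetylaspartate, had 99.6, 116 and 126 CPM in mature nuclei, and only 3, 3 and 1 UMIs in newly forming nuclei.

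The genes of the newly forming stage went the other way, with 11 of 14 lower in mature nuclei in all 3 libraries, against 30.9% of all genes. The 11 include Enpp6, whose UMIs chose the newly forming nuclei, and without it they were 10 of 13. Bcas1, a marker of the premyelinating stage, stood at 5139, 5205 and 5705 CPM in newly forming and at 1537, 1462 and 1703 CPM in mature nuclei. Tcf7l2, a transcription factor of the Wnt pathway, stood at 2594, 3917 and 2892 CPM and then at 888, 707 and 684 CPM. Man1a, an enzyme that trims mannose from glycoproteins, was the member that was higher in mature nuclei in all 3 libraries, at 1132, 1362 and 1163 CPM against 62.2, 163 and 76.2. Of the precursor genes, 10 of 10 compared were lower in mature than in newly forming nuclei in all 3 libraries, beside the same 30.9%.

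Of the transcription factors of the lineage, 5 of 13 were higher and 6 lower in mature nuclei in all 3 libraries, beside 29.2% and 30.9% of all genes. St18, a zinc finger factor, had 4001, 3305 and 4436 CPM in mature nuclei, 1241, 1217 and 1318 in newly forming nuclei and 23.0, 90.6 and 27.5 in precursor nuclei. Zfp536, also a zinc finger factor, had 3126, 3057 and 3527 CPM in mature and 307, 456 and 629 in newly forming nuclei. Sox10, the factor of the whole lineage, was lower in mature nuclei at 389, 389.8 and 310 CPM than in newly forming nuclei at 574, 577 and 540 CPM. Sox6, which holds precursors back, stood at 3358, 3095 and 3195 CPM in newly forming nuclei and at 258, 377 and 341 in mature nuclei. Outside the factors, Slc24a2, a potassium-dependent sodium and calcium exchanger, had 5562, 4552 and 6766 CPM in mature and 371, 526 and 497 in newly forming nuclei.

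**Figure D2:**
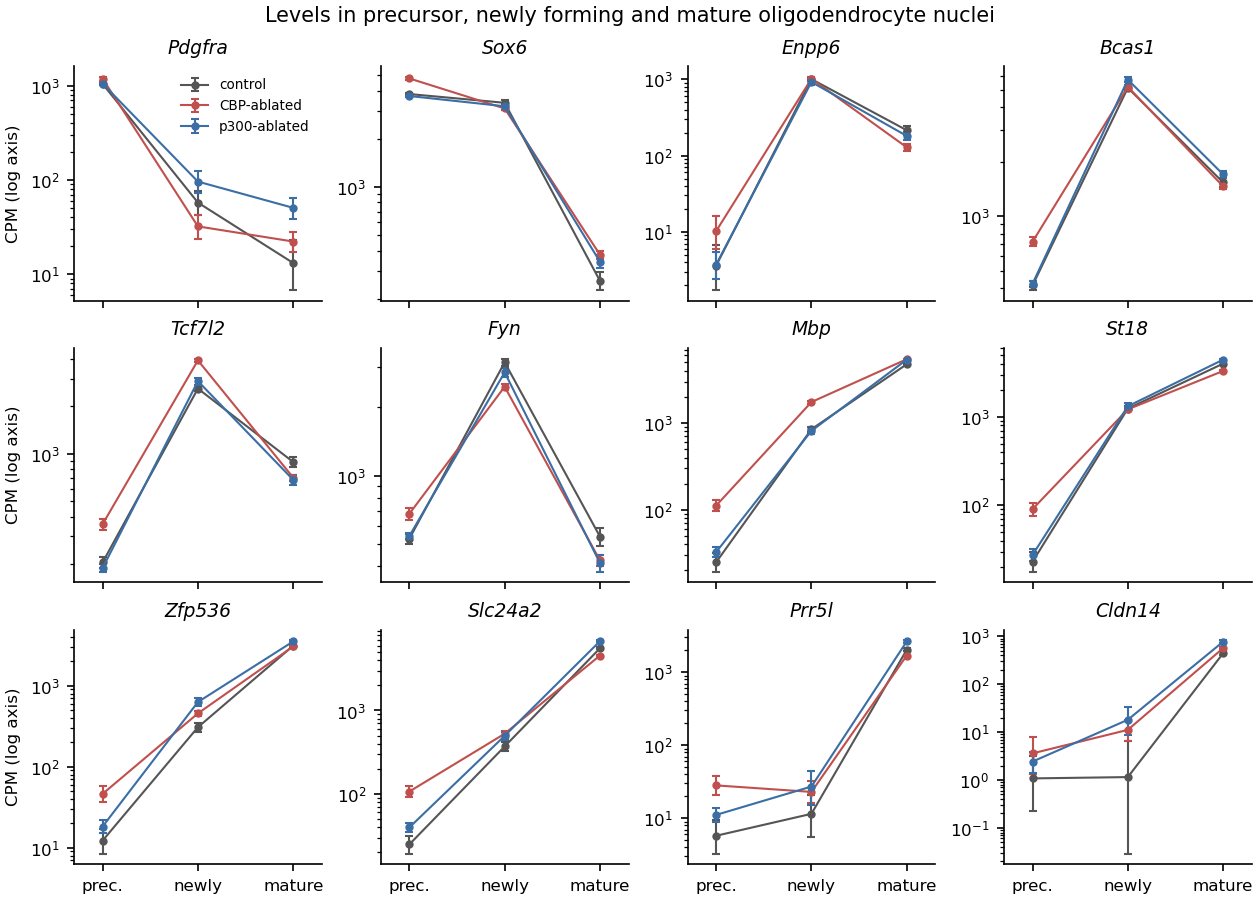
Level (CPM, log axis) of 12 genes in precursor, newly forming and mature nuclei of the control, CBP-ablated and p300-ablated libraries, with exact 95% Poisson intervals as bars. Pdgfra and Sox6 are highest in precursor nuclei, Enpp6, Bcas1, Tcf7l2 and Fyn peak in newly forming nuclei, and Mbp, St18, Zfp536, Slc24a2, Prr5l and Cldn14 are highest in mature nuclei of every library, while Pdgfra chose the precursor nuclei and Enpp6 the newly forming ones.

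Lipid genes were read by pathway. Of 16 genes of cholesterol synthesis and its control, 14 were compared, and 11 were lower in mature than in newly forming nuclei in all 3 libraries, with none higher in all 3, beside 30.9% lower and 29.2% higher among all genes. Of 12 genes of sphingolipid and fatty acid synthesis compared, 8 were higher in mature nuclei in all 3 libraries and 2 were lower, beside the same shares. Whether the pathways differ was not tested. Gal3st1, which makes sulfatide, had 146, 125 and 128 CPM in mature and 55.2, 64.3 and 63.5 in newly forming nuclei.

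Mature nuclei also varied among themselves with their rule-gene sum. Nuclei with 4 to 7 rule-gene UMIs made up 21.8%, 16.02% and 17% of mature nuclei, and nuclei with 16 or more made up 36.5%, 55.5% and 44%. Their median depth was 5098, 5172.5 and 5210.5 UMIs in the lowest range and 5604.5, 6351 and 6867 in the highest, so the range moves with depth. Of the genes of the newly forming stage, none is in the rule, and the 13 left without Enpp6, which chose the newly forming nuclei, summed to 15689.8, 13883 and 13346 CPM in the lowest range and to 5608, 5975 and 5341 in the highest, against 18280.3, 20110.2 and 19219 CPM in newly forming nuclei. The 18 genes of compact myelin, also outside the rule, summed to 8231, 7424 and 7672 CPM in the lowest range and to 10718, 11720 and 11712 in the highest, against 3780, 4435 and 3781 CPM in newly forming nuclei. By both sums the lowest range stood between newly forming nuclei and the highest range in all 3 libraries. Enpp6 at 2 or more UMIs was still present in 40 of 170, 84 of 512 and 53 of 200 mature nuclei, or 23.5%, 16.4% and 26.5%.

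**Figure D3:**
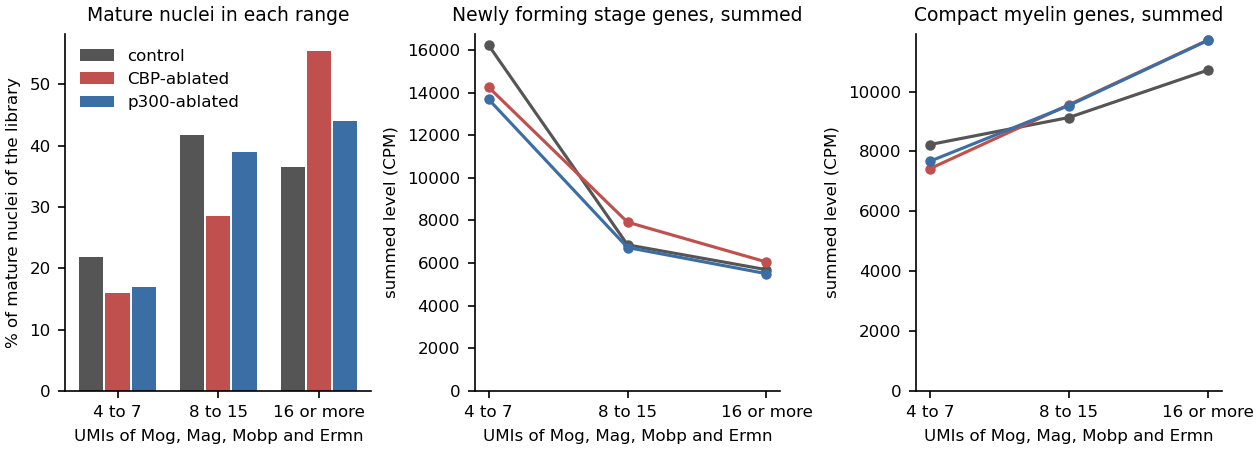
Left, share of the mature nuclei of each library (%, y axis) with 4 to 7, 8 to 15 and 16 or more UMIs of the 4 rule genes. Middle and right, summed CPM of the newly forming stage genes, Enpp6 included, and of the compact myelin genes in those ranges, with the former lower and the latter higher at 16 or more UMIs than at 4 to 7 in every library.

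The floxed genes were read next within mature nuclei. Crebbp (chromosome 16 from 4081328 to 4213997) stood at 240.9 CPM in control (210.1 to 275), against 296 after CBP ablation (277 to 316) and 301 after p300 ablation (272 to 333). Ep300 (chromosome 15 from 81585351 to 81652077) stood at 86.5 CPM in control (68.5 to 108), against 128 after CBP ablation (116 to 141) and 102 after p300 ablation (85.03 to 121). Neither floxed gene was lower in its own ablated library. Counts over whole genes include RNA outside the removed exon, so these levels do not check the labels. The recombined Ep300 allele is described as giving no mature mRNA, and which alleles gave the UMIs counted in these nuclei was not tested.

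The question of the next comparison was whether the RNA of a mature oligodendrocyte nucleus differed between libraries. Genes were compared when they had at least 100 UMIs in the mature nuclei of both libraries together, which held for 5070 genes with CBP ablation and 3248 with p300 ablation. A log2 ratio of 1 or more was found for 73 genes (1.44%) after CBP ablation and of −1 or less for 42 (0.828%), or past 1 in either direction for 2.27%. The mature nuclei of the CBP-ablated library held more UMIs than those of control, so a gene could reach 100 UMIs through the CBP-ablated library alone, as Zfp804a did with 121 UMIs against 5. With at least 20 UMIs in each library asked as well, a limit chosen after seeing the data, 4880 genes were left and the counts were 32 and 42. With 20 UMIs in each library as the sole limit they were 32 and 85 of 5335 genes. Under both limits more genes were lower than higher, but 20 UMIs are a higher level in control, whose mature nuclei held fewer UMIs. Both limits thus drop genes that are low in control sooner than genes that are low after CBP ablation. These counts therefore cannot give a direction. With at least 300 UMIs in both libraries together the counts were 13 and 6, so more were higher. With a minimum of 10 rule-gene UMIs they were 65 and 26, again with more higher. After p300 ablation the counts were 48 (1.48%) and 20 (0.616%), or 2.09% in either direction. With at least 300 UMIs in both libraries together they were 8 and 10, so more genes were then lower. The median ratio of all genes compared was 0.10 and 0.09, and 62.4% and 61.1% of them were above 0, and the lists are to be read against these values. With the ratios centred on that median the counts were 51 and 67 for CBP, with more genes lower, and 36 and 24 for p300. Of 13 and 9 genes of acetyltransferases and deacetylases compared, none was past 1 in either direction. Hdac4, a deacetylase, had the lowest ratio of that list, at 124, 65.3 and 112 CPM.

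Of 17 compact myelin genes compared, the list medians were 0.07 for CBP and 0.13 for p300 ablation, close to those of all genes. The ratios of single members ran from −0.91 to 0.40 and from −0.45 to 0.62, and none was past 1. The ratio of Mbp was 0.19 (0.15 to 0.24) and 0.18 (0.12 to 0.23). In all other nuclei of the CBP-ablated library the ratio of Mbp was 2.33. Anln, an actin-binding protein, had the lowest ratio of the list after CBP ablation, at 120.4 CPM in control and 64.1 in CBP-ablated nuclei, or −0.91 (−1.25 to −0.56), while p300-ablated nuclei had 147 CPM. Of 10 sphingolipid genes and 7 cholesterol genes compared after CBP ablation, none was past 1 in either direction, and the medians were 0.08 and 0.02. After p300 ablation 8 and 4 were compared, none past 1, with medians of −0.06 and −0.16. Of these, 5 and 4 were below 0, while 61.1% of all genes were above 0. Ugt8a, which makes galactosylceramide, had 642, 717 and 596 CPM.

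The 19 late stage genes together had 1720.1, 2125 and 2062 CPM. Pde1c, a phosphodiesterase and the most abundant of them, had 429, 741 and 377 CPM, and its CBP-ablated ratio was 0.79 in mature and in all other nuclei. Hapln2, which encodes a link protein of the nodal matrix (ENSMUSG00000004894, chromosome 3 from 88021750 to 88027583), stood at 40.5 CPM in control (28.5 to 55.8), against 63.4 after CBP ablation (54.9 to 72.9) and 112 after p300 ablation (94.6 to 133). The ratio was 0.65 (0.13 to 1.19) for CBP and 1.47 (0.94 to 2.04) for p300. A UMI of Hapln2 was found in 5.33%, 8.2% and 13.6% of thinned mature nuclei and in 15.9%, 26.6% and 35% before thinning, and in none of 69, 28 and 36 thinned microglial nuclei. Trf, the iron carrier transferrin, had 168, 231 and 294 CPM, and Car2, a carbonic anhydrase, 214, 259 and 317 CPM. For Trf, Car2 and Hapln2 control was thus lowest and the p300-ablated library highest, whereas for Pde1c the p300-ablated library was lowest and the CBP-ablated one highest. Grm3, a glutamate receptor, was highest in control, at 66.8, 38.9 and 32.1 CPM, with a p300-ablated ratio of −1.06 (−1.67 to −0.46), and it was lower in all other nuclei of that library too, at −2.28. Across the list, 9 of 15 genes compared were above 0 after CBP ablation, with a median of 0.09, and 9 of 13 after p300 ablation, with a median of 0.22, beside 62.4% and 61.1% above 0 among all genes.

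Genes of the newly forming stage had lower ratios in mature CBP-ablated nuclei, with 10 of 12 below 0 and a median of −0.27, while 62.4% of all genes were above 0. Itpr2, an IP3-gated calcium channel of the endoplasmic reticulum, was the one past −1, at 373 CPM in control (335 to 415), 181 after CBP ablation (167 to 197) and 189 after p300 ablation (165 to 215). Enpp6, a choline phosphodiesterase, had 215 CPM in control (186 to 247), 128 after CBP ablation (116 to 141) and 181 after p300 ablation (158 to 206). Fyn, the kinase that acts below axon contact, had 539, 423 and 412 CPM. In the p300-ablated library 7 of 12 genes were below 0, while 61.1% of all genes were above, and the median was −0.18, with 9630013A20Rik, annotated as an antisense RNA, the one past −1 at 1080 CPM in control and 463 after p300 ablation. It was lower in all other p300-ablated nuclei as well, at −1.49. The mix of rule-gene ranges moved with these values. With the ranges of each library given the control weights, the list median was −0.03 for CBP and −0.11 for p300, and the CBP-ablated ratio of Itpr2 was −0.67. With a rule of at least 10 rule-gene UMIs the medians were −0.03 and 0.29.

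Precursor genes were uneven. Tnr, the matrix protein tenascin-R, had 1372, 830.5 and 1190.3 CPM in mature nuclei, and Dscam, an adhesion molecule, had 819, 503 and 837 CPM. Of the 8 genes compared none was past a ratio of 1 in either library, 5 were below 0 after CBP ablation with a median of −0.44, and 3 were below 0 after p300 ablation with a median of 0.10, beside 62.4% and 61.1% of all genes above 0. Lhfpl3 stood at 3001 CPM in the p300-ablated library against 1501 in control, a ratio of 1.00 (0.91 to 1.09), and Ptprz1, a receptor phosphatase, at 349 against 207 CPM. Lhfpl3 had 14727 CPM in p300-ablated precursor nuclei, the most frequent of the 3 stages in that library, and a ratio of 0.62 in all other nuclei. With 10% free RNA in the proportions of each library subtracted, the p300-ablated median of the precursor list was −0.27.

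The lists of lineage factors, channels, receptors, axon contact genes and p53 targets held no gene past 1 in either library, which is near what the share of all genes gives for lists of this size. Of 13 factors that drive the lineage, the CBP-ablated ratios ran from −0.28 to 0.22. After p300 ablation 7 were compared, with ratios from −0.52 to 0.17 and a median of −0.18. Myrf, the factor that switches on myelin genes, had 163, 174 and 141 CPM. Of 9 channel and transporter genes compared, the ratios ran from −0.89 to 0.13 after CBP ablation and from −0.64 to 0.88 after p300 ablation, where Kcnab1, a potassium channel subunit, was highest, at 175, 160.3 and 323 CPM. Of the receptors and signals, 15 and 11 were compared, with ratios from −0.86 to 0.66 and from −0.99 to 0.58. Nrg1, a ligand of ErbB receptors, was lower in both ablated libraries, at 159.9, 88.2 and 80.3 CPM. Of 16 genes of axon contact and paranode adhesion, 14 and 12 were compared, with medians of 0.01 and −0.11. Nfasc, which encodes the glial anchor of the paranode, had 3280, 3632 and 2935 CPM. Of 12 p53 targets, 5 and 4 were compared, with medians of −0.35 and 0.09. The factors that hold the lineage back had 3 genes compared, with medians of 0.30 and 0.40. The p300-ablated median was 0.016 with a minimum of 3 rule-gene UMIs and −0.036 with Mog, Mag and Mbp as rule genes, and with 10% free RNA subtracted the medians were 1.57 and 1.13. Sox6, the most abundant of these factors, had 258 CPM in mature control nuclei and 2293 CPM in all control nuclei. Subtracting 10% of the latter thus took most of its control level.

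**Figure D4:**
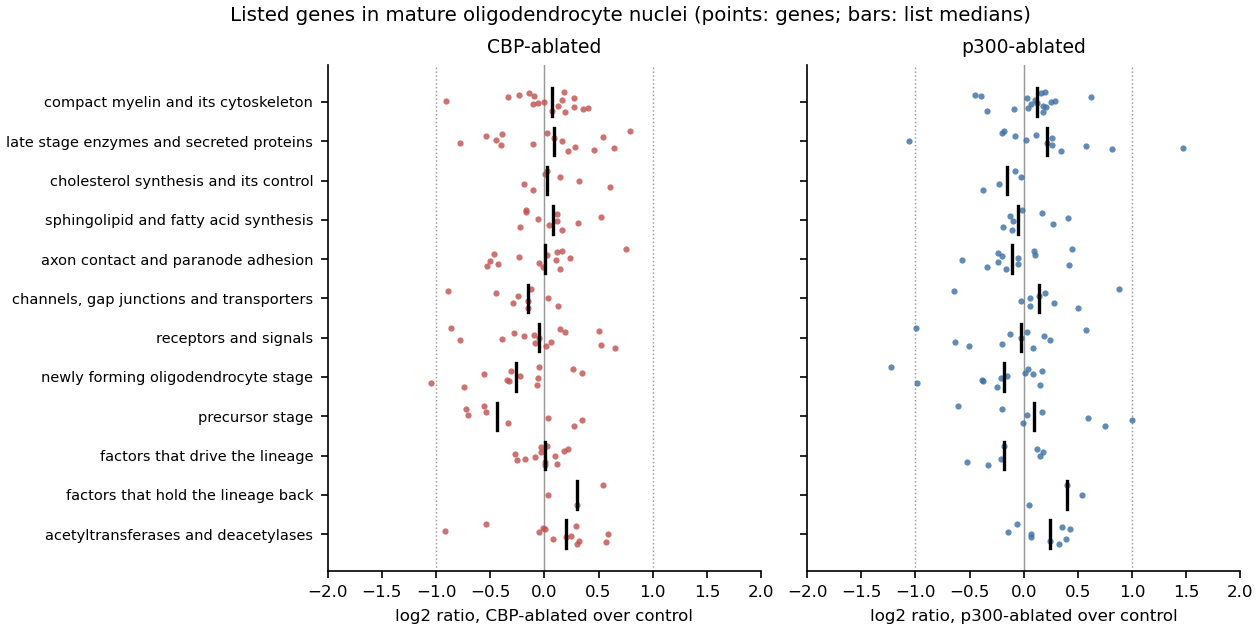
Log2 ratio (x axis) of each listed gene with at least 100 UMIs, in mature nuclei of the CBP-ablated (left) and p300-ablated (right) library over control, with black bars at the list medians and dotted lines at −1 and 1. Few points lie past the dotted lines, and the medians of the newly forming list are −0.27 and −0.18.

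Immediate early and antigen presentation genes were sparse in mature nuclei, while Vldlr, the most abundant stress gene, had 136, 134 and 184 CPM. Jun was the one immediate early gene with enough UMIs to compare, at 33.9, 32.5 and 73.1 CPM, a ratio of 1.11 (0.50 to 1.74) after p300 ablation and 0.45 in all other nuclei of that library. Below the limit of 100 UMIs, Fos had 13.1, 11.3 and 38.6 CPM and Egr1 3.28, 8.37 and 26.5 CPM. All 3 genes were thus highest in the p300-ablated library. Of the 15 genes of the integrated stress response, Vldlr and Slc3a2 were compared after CBP ablation, at ratios of −0.02 and −0.68, and Vldlr after p300 ablation, at 0.44 (0.12 to 0.77). Of the 12 genes of reactive oligodendrocytes, Nlrc5, a regulator of antigen presentation, was compared, at 54.7, 29.0 and 70.7 CPM.

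Sex-linked RNA differed between libraries in mature nuclei, and the sexes of the pooled pups are not stated in the sources used here. Xist, the RNA of the inactive X chromosome, had 1643, 1965 and 1173 CPM, and Uty, a gene of the Y chromosome, 47.1, 75.3 and 118 CPM. After p300 ablation the ratio of Uty was 1.33 (0.83 to 1.85) in mature nuclei and −0.12 in all other nuclei, and the ratio of Xist was −0.49 and −0.06. The part of sex in the other ratios was not tested.

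Outside the lists, the genes of largest ratio were taken by the bound of the interval nearest to 0. In the CBP-ablated library Frmd4a, which encodes a scaffold protein of cell polarity (ENSMUSG00000026657, chromosome 2 from 4017717 to 4614043), was among the 12 genes that were lowest. It had 3519 CPM in mature control nuclei (3398 to 3643), against 1259 after CBP ablation (1219 to 1299) and 2636 after p300 ablation (2547 to 2728). The ratio was −1.48 (−1.55 to −1.42) for CBP and −0.42 (−0.49 to −0.35) for p300. Its UMIs came from 132 of 170 control and 396 of 512 CBP-ablated nuclei. Frmd4a was lower at each higher rule-gene range, at 11147, 2506 and 769 CPM in the lowest, middle and highest range of control, at 4642, 1230.02 and 479.6 CPM after CBP ablation and at 9656, 2093 and 790.04 CPM after p300 ablation. The CBP-ablated level was thus the lowest of the 3 libraries in each range. In newly forming nuclei it stood at 9522, 5519 and 7696 CPM, and the CBP-ablated ratio there was −0.79 (−0.83 to −0.74). In all other nuclei that ratio was 0.33, and the difference of mature from other nuclei was −1.81 log2 units (−1.88 to −1.73). Given the control weights of the ranges, the CBP-ablated ratio in mature nuclei was −1.13, and with at least 10 rule-gene UMIs it was −0.91. For p300 ablation the ratio at that minimum was 0.13, so its direction turned.

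Of the other genes that were lowest in the CBP-ablated library, Dpp6, a potassium channel subunit, stood at 243, 100.4 and 209.6 CPM. Dner, a ligand of Notch, stood at 240.9, 79.2 and 161 CPM, and Adamtsl3, a protein of the matrix, at 240.9, 93.4 and 211 CPM. In newly forming nuclei Dpp6 had a CBP-ablated ratio of −1.28, as low as in mature nuclei (difference 0.01, −0.40 to 0.41), and Dner one of −1.09 (difference −0.52, −1.11 to 0.07). Gipr, the receptor of a gut hormone (chromosome 7 from 19156061 to 19166127), stood at 79.9 CPM in control (62.6 to 100.5), 15.1 after CBP ablation (11.1 to 20.1) and 78.7 after p300 ablation (63.9 to 95.9). In all other nuclei Gipr had 0.844, 1.45 and 1.36 CPM. For Dpp6, Dner, Adamtsl3 and Gipr the CBP-ablated level was the lowest of the 3. Tmem132d had the lowest ratio, −3.10 (−3.77 to −2.46), but 62.1% of its CBP-ablated and 61.6% of its control UMIs came from 5 nuclei.

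Among genes that were higher in the CBP-ablated library, Chl1, an adhesion molecule of the L1 family (chromosome 6 from 103510586 to 103750211), stood at 71.2 CPM in control (54.9 to 90.7), 171 after CBP ablation (156 to 186) and 78.7 after p300 ablation (63.9 to 95.9). It was found in 316 of 512 CBP-ablated nuclei, and its ratio was 1.26 (0.89 to 1.66). In newly forming nuclei the ratio was 0.90 (0.50 to 1.31), not set apart from that of mature nuclei at a difference of 0.37 (−0.17 to 0.90), and in all other nuclei together it was −0.05. Unc13b, a vesicle priming protein, had 43.8, 119 and 87.5 CPM, and Pacs1, a sorting protein of the trans-Golgi network, 24.1, 70.8 and 57.02 CPM. Piezo2, a mechanically gated channel, had 229, 493 and 308 CPM, and Dach2, a nuclear factor, had 29.6, 94.3 and 48.2 CPM. For Piezo2 and Dach2 the ratio was also above 1 in all other nuclei, and the differences of the ratios were −0.09 (−0.39 to 0.21) and 0.03 (−0.55 to 0.61). Zfp804a, Adamts9 and A2m took over 50% of their CBP-ablated UMIs from 5 nuclei, so their ratios rest on few nuclei.

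Spag5, which encodes a protein of the mitotic spindle (chromosome 11 from 78301529 to 78322457), was among the highest genes of both comparisons. It had 77.7 CPM in control (60.7 to 98.1), 233 after CBP ablation (216 to 251) and 252 after p300 ablation (225 to 282). Its UMIs came from 52 of 170, 357 of 512 and 138 of 200 mature nuclei. Control was also lowest in newly forming nuclei, at 89.8, 265 and 247 CPM, and in all other nuclei, at 108, 263 and 209 CPM. Both comparisons share the control library, so a low control level enters both ratios.

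In the p300-ablated library Neat1, a nuclear long noncoding RNA that builds paraspeckles (chromosome 19 from 5824708 to 5845478), had 1014 CPM (958 to 1071) against 481 in control (437 to 528), with 735 after CBP ablation (705 to 766). The p300-ablated ratio was 1.08 (0.92 to 1.24) in mature and 1.10 in newly forming nuclei. Nkain1, a partner of the sodium pump, had 44.9, 41.5 and 130.1 CPM, and its p300-ablated ratio was −0.25 in all other nuclei. Tln2, a talin, had 95.3, 89.5 and 239 CPM, and Cdh18, a cadherin, 24.1, 32.5 and 89.1 CPM. In all other p300-ablated nuclei the ratio of Tln2 was 0.71 and that of Cdh18 0.92, so both were higher there as well. Cdh18 had a ratio of 0.94 in newly forming nuclei, and its difference from mature nuclei had an interval that included 0 (−0.09 to 1.98). Rgs6 and Shroom3 took over 50% of their p300-ablated UMIs from 5 nuclei.

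Lingo2, a leucine-rich repeat protein of the membrane (chromosome 4 from 35706647 to 36951747), led the genes that were lower in the p300-ablated library, at 383 CPM in control (344 to 426), 338 after CBP ablation (318 to 359) and 110.03 after p300 ablation (92.4 to 130.1). The p300-ablated ratio was −1.80 (−2.10 to −1.51) in mature nuclei, −0.23 in newly forming nuclei and −0.62 in all other nuclei together, the last with a difference of −1.18 (−1.49 to −0.87). The level was lower in each rule-gene range, at 433, 365 and 377 CPM from the lowest to the highest range of control and at 113, 85.7 and 127 CPM after p300 ablation. Grm7, a glutamate receptor, had 1793, 2178 and 846 CPM. Kank1, a regulator of actin, had 238, 203 and 105 CPM, and its p300-ablated ratio was −1.18 in mature nuclei, 0.22 (−0.09 to 0.53) in newly forming nuclei and −0.60 in all other nuclei together. Tmem126a, a mitochondrial membrane protein, had 153, 97.2 and 57.8 CPM. For Lingo2, Grm7, Kank1 and Tmem126a the p300-ablated level was thus the lowest of the 3.

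**Figure D5:**
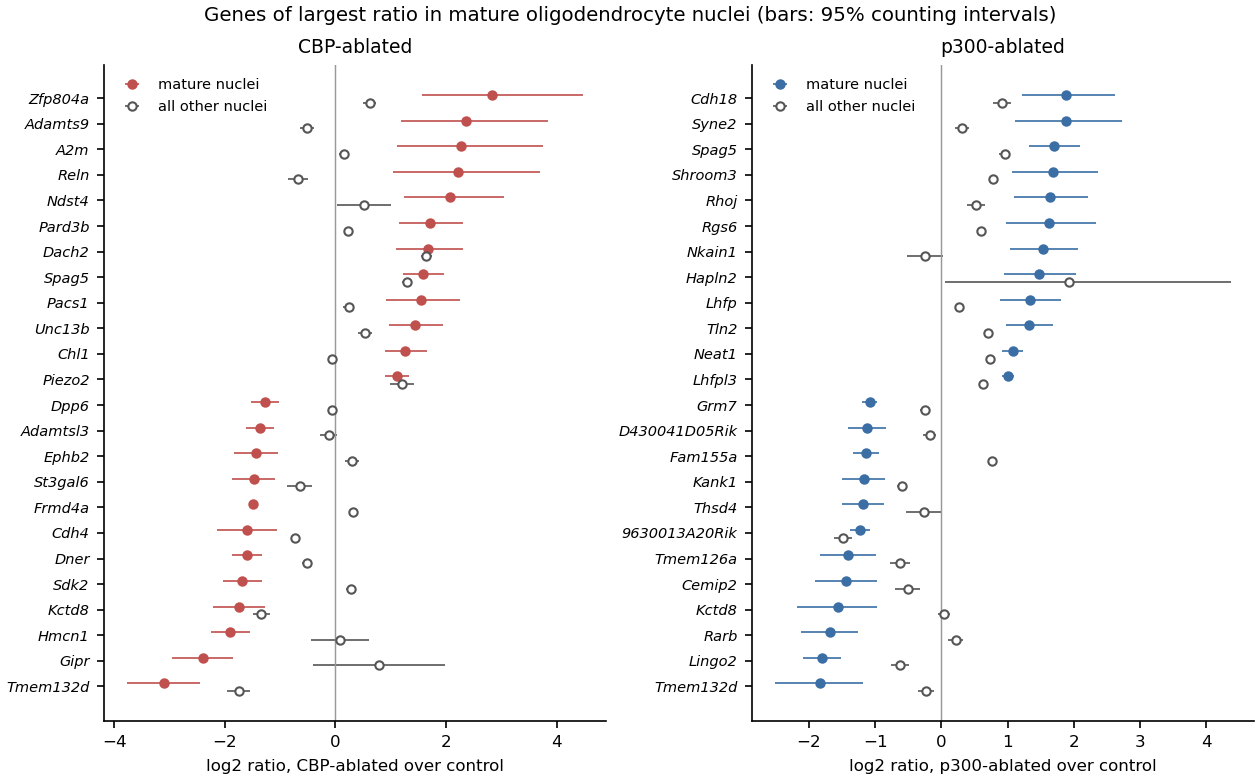
Log2 ratio (x axis) of the 12 genes of highest and the 12 of lowest ratio in mature nuclei (filled points) of the CBP-ablated (left) and p300-ablated (right) library over control, beside the ratio of the same gene in all other nuclei of the libraries (open points), with 95% counting intervals as bars. Frmd4a is at −1.48 in mature nuclei and 0.33 in all other nuclei, whereas Piezo2, Dach2 and Spag5 of the left panel have both points above 1.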

How the data were processed

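Per the submitters' processing notes the reads were processed with Cell Ranger 3.1 on GRCm38, and the authors deposited raw counts of UMIs, over exons and introns, for 30559 genes in 12549 nuclei. All nuclei were kept. Libraries totalled 16312170 (control), 12748336 (CBP-ablated) and 18876682 UMIs (p300-ablated). UMIs from 3′ ends depend on gene structure, so levels were compared between samples, and between genes only to name the most abundant of a list. Members and the 24 gene lists were chosen with earlier results of these data known. Genes were named when on a list, when among the 12 highest or lowest ratios of a comparison, or when among the 12 with the largest ratio of mature over other nuclei. Some genes are not reported here, and 41 symbols of more than one gene were not compared. Intervals were exact Poisson (levels), Clopper-Pearson (shares), Newcombe (differences of shares), conditional binomial (ratios) and Wald (differences of ratios). Coordinates are those of GRCm38. Overlaps were searched for the rule genes, Cldn14, Prr5l, Crebbp, Ep300 and the 12 highest and lowest ratios of each comparison. No coding gene among these overlapped another coding gene on its strand, and the other named genes were not checked. Doublets were scored with Scrublet in scanpy 1.11.5 and called at 0.8% per 1000 nuclei. The calculation of the ratios was checked on simulated data, which is not a test between conditions. Python 3.11.15, numpy 2.4.6, scipy 1.17.1, pandas 2.3.3 and matplotlib 3.10.9 were used.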

Additional observations from a re-analysis of the deposited data

How the results depend on the processing

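No paired analysis was possible because each condition had 1 library, and for the same reason no replicate could be left out. The share of mature nuclei kept its order of control, p300-ablated and CBP-ablated under the rule-gene minimums, the thinned counts and the other rules tried, with an interval of the p300 difference that included 0 in 7 of 11, and turned for p300 when set against the oligodendrocyte lineage. With a minimum of 6 rule-gene UMIs the CBP-ablated share was 15.5%. With a minimum of 10 the shares were 2.38%, 13.2% and 3.31%, and the CBP difference was 10.85 points. With Mog, Mag and Mbp as rule genes they were 4.89%, 24.3% and 5.40%, and the CBP difference was 19.4 points. In nuclei thinned to 1500 UMIs with a minimum of 4 they were 1.83%, 10.7% and 2.48%, and the CBP difference was 8.84 points. Among nuclei with under 2 UMIs of Slc7a11, an astrocyte gene, the control share was 4.17% and the p300 difference 0.155 points. Of the lineage they were 15.3%, 41.1% and 10.3%, with differences of 25.8 points for CBP and −4.93 points for p300.

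Of 384 list medians over 12 alternatives, 373 stayed within their intervals. Such an interval ran from the median of the members' lower bounds to that of their upper bounds. It has the width of a single gene's counting error, so staying inside it is a weak check. The newly forming median moved to −0.029 for CBP and 0.29 for p300 with a minimum of 10, and to −0.030 for CBP with control range weights. The precursor median of p300 moved to −0.27 with 10% free RNA subtracted. The hold-back factors moved to 1.57 for CBP and 1.13 for p300 with 10% free RNA subtracted, and for p300 to 0.016 with a minimum of 3 and to −0.036 with Mog, Mag and Mbp. That subtraction took most of the control level of Sox6, the most abundant of them. The astrocyte markers moved to −0.21 for CBP with 5% subtracted, and to 0.62 and 0.15 for CBP and p300 with 10%, so their direction turned. Among genes past the fold after CBP ablation, 32 were at 1 or more and 85 at −1 or less with at least 20 UMIs in each library in place of 100 together, 32 and 42 with both limits, which was chosen after seeing the data, and 13 and 6 with at least 300 UMIs in both together. A limit of 20 UMIs in each library is a higher level in control, so it drops genes that are low in control sooner. The genes at −1 or less numbered 26 with a minimum of 10 and 67 with centred ratios. After p300 ablation 8 and 10 genes remained past the fold among those with at least 300 UMIs. Sdk2 turned to 0.31 for CBP and D430041D05Rik to 0.61 for p300 with a minimum of 10. Of all 4412 ratios of named genes under the alternatives, 4140 stayed within their intervals, and 16 ratios had no level left after subtraction. The cause of these changes was not tested.

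The control class was the smallest, at 170 nuclei, and its floor of 3 UMIs was 3.28 CPM, so a level below that could not be told from 0.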
